A study of Mus musculus with 14 samples.

Results

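The Tet2 stop site was followed through every sequenced embryo that has a deposited Tet2 window. The deposited tables hold 306 embryo-by-gene windows, and a header line names Tet2 in 52 of them, all of them for embryos that are labelled Tet-TKO, 4KO, 5KO or 6KO. Of these windows, 39 came from edited embryos and 13 from control embryos, which are kept apart throughout. Zygotes from F1 females (B6D2F1 per the methods) and males named C57BL/6 in the labels (Oct4-EGFP on a C57BL/6J background in the methods) were injected with mRNA of the cytosine base editor hA3A-eBE3-Y130F. All 4 groups received the same sgRNAs for Tet1, Tet2 and Tet3. Tet-TKO embryos received no others, 4KO embryos also received the Dnmt1 sgRNA, 5KO embryos those for Dnmt3a and Dnmt3b, and 6KO embryos all of these. Control embryos, per the study's records, were injected with editor mRNA and no sgRNA. The same records give a higher concentration of editor mRNA for 4KO, 5KO and 6KO than for Tet-TKO, so the added sgRNAs and the editor dose cannot be told apart.

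TET2 is a dioxygenase that oxidises 5-methylcytosine to 5-hydroxymethylcytosine and further products, a route by which DNA methylation is removed. It acts beside TET1 and TET3 in the early embryo, and in blood its loss is known from myeloid disease. The catalytic domain lies in the C-terminal part of the protein, so a stop codon near the N-terminus removes it. A cytosine base editor carries a deaminase, here from human APOBEC3A, on a Cas9 nickase. It turns C into T on the strand that the sgRNA displaces, mainly at positions far from the protospacer-adjacent motif (PAM). Other C positions in the same window that are converted along with the target are called bystanders. APOBEC3A is known to prefer a C that follows a T.

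Each window holds 26 bases: 3 bases before the protospacer, the 20 bases of the protospacer, counted from 1 at the end far from the PAM, and the 3 bases of the PAM. The sequences below are written 5′ to 3′ on the guide strand, and they show which C positions could be converted and which conversions were read. Capitals mark every C in the reference line, and the converted base or bases in the other lines.
Tet2 reference: tgaaattCaggttCtCaaCgagCagg
Tet2 with C5T: tgaaattTaggttctcaacgagcagg
Tet2 with C5T and C11T: tgaaattTaggttTtcaacgagcagg
Tet2 with C5T and C13T: tgaaattTaggttctTaacgagcagg
The window has 5 C, at positions 5, 11, 13, 16 and 20. C5, C11 and C13 each follow a T, whereas C16 follows an A and C20 a G.

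The Tet2 protospacer AATTCAGGTTCTCAACGAGC with its PAM AGG matched the GRCm38 genome at 1 place, chromosome 3 from 133488137 to 133488156 on the minus strand. The Tet2 gene spans 133463679 to 133545139 on that strand, and the site lies in the coding part of exon 3 of 11 of the transcript that encodes 1912 residues. C5T at 133488152 turns the CAG codon of residue 174 into TAG (Q174*). The stop lies at 9.10% of the protein's length, and 1739 residues are lost with it. The target is coding in 2 of the 10 annotated transcripts, 4 of which are protein-coding, and C5T makes a stop in both. The bystanders differ in what they would do to an unstopped reading frame. C11T at 133488146 changes the leucine codon CTC to the phenylalanine codon TTC (L176F), while C13T at 133488144 gives CTT, which is still leucine. C16T would be silent and C20T would make another stop (Q179*).

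The values are percentages of reads with a given base in the DNA of a whole embryo, so they average over its cells and both alleles. Stages were embryonic day (E) 7.5, 8.5, 9.5 and 10.5 in Tet-TKO, E7.5 to E9.5 in 4KO and 5KO, and E6.5 to E8.5 in 6KO, with 3 edited embryos per group and stage. Embryos numbered 1 and 2 belong to the 8 labelled samples, 26 embryos in all, and the 13 embryos numbered 3 match no labelled sample and entered none of the comparisons between samples. Read depth is not given, and most positions are given to the nearest 1%. Only C5 and C16 are given more finely. The study's records count embryos homozygous for every targeted gene among those genotyped, and how the sequenced embryos were picked is not given in the sources used here, so the shares below describe these embryos and not all injected ones. Samples are embryos with different numbers, and nothing says which came from the same litter or injection, so p-values measure the spread between these samples only. Among control embryos, the 6KO control of E6.5 had the same shares as the Tet-TKO control of E7.5, and the 4KO control of E7.5 the same as the Tet-TKO control of E9.5, within 0.005 points over 312 shares each. They are therefore 11 distinct controls under 13 names, and no pair of edited embryos coincided in this way. Counts and medians over controls below are taken over the 13 names, so the repeated controls count again.

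At the 21 positions with a reference A, G or T, no other base exceeded 1% in any edited or control embryo. Conversion at Tet2 was therefore a matter of the 5 C positions. C5 was read as T in nearly all reads of every edited embryo, C11 and C13 in up to 40% and 39% of reads of some embryos, and C16 and C20 in almost none. C16 was T in 0.0115% to 0.317% of reads in edited embryos and in 0% to 0.111% in controls. C20, whose conversion could have formed a stop of its own, was at 0% T in all 39 edited embryos at the resolution of these tables. Among controls it was at 1% in the 6KO control of E8.5 and at 0% in the others.

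C5, the base that makes the stop, was T in 93.2% to 99.9% of reads over the 39 edited embryos, with a median of 98.9%. Control embryos ranged from 0% to 2.38% with a median of 0.218%, and no control came near an edited embryo. At least 95% was reached in 37 of 39 edited embryos and at least 98% in 31.

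In Tet-TKO embryos the C5 shares at E7.5 were 97.8%, 98.7% and 99.7% for embryos 1, 2 and 3. At E8.5 they were 98.9%, 99.3% and 98.9%. At E9.5 they were 98.01%, 98.58% and 98.54%, and at E10.5 98.44%, 98.08% and 98.05%. The 12 embryos lay within 1.90 points of each other. All 3 embryos of E8.5 were above all 6 of E9.5 and E10.5, while E7.5 overlapped every other stage.

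The 9 embryos of 4KO were the closest to complete conversion. Their T share ran from 99.89% to 99.94%, and unconverted C from 0.0222% to 0.0585% of reads. Only 1 of the 30 edited embryos of other groups, the 5KO embryo 2 of E8.5, was above the lowest 4KO embryo. In all but 1 of these 9 embryos the remaining reads held more A and G together than C.

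In 5KO the E7.5 embryos had 95.5%, 98.2% and 97.4% T at C5. The E8.5 embryos had 99.3%, 99.9% and 99.8%. The E9.5 embryos had 99.34%, 99.0% and 96.13%. All 3 embryos of E8.5 were above all 3 of E7.5, while E9.5 overlapped both.

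In 6KO the lowest shares of the whole set were found. The E6.5 embryos had 93.2%, 97.4% and 94.9%, and embryos 1 and 3 of this stage were the only edited embryos under 95%. The later embryos had 98.9%, 99.0% and 99.2% at E7.5 and 99.2%, 98.9% and 97.5% at E8.5. All 3 embryos of E6.5 were therefore below all 6 later ones, though the gap between the highest of E6.5 (97.45%) and the lowest of E8.5 (97.53%) was small. 6KO is the only group with E6.5 embryos, so stage and group cannot be told apart for them.

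**Figure D1:**
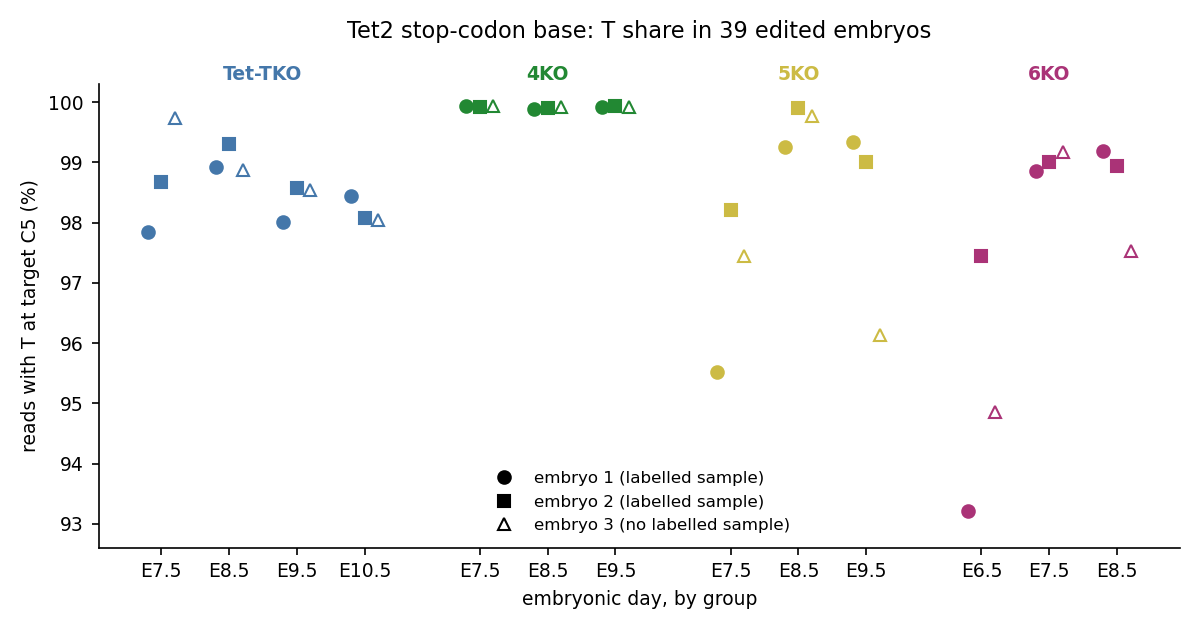
Percentage of reads with T at the Tet2 target C5 (vertical axis, which does not start at 0) in 39 edited embryos, by group and embryonic day (horizontal axis). Each point is 1 embryo; open triangles are embryos 3, which match no labelled sample. The 9 embryos of 4KO lie together above 99.8%, and 2 of the 3 embryos of 6KO at E6.5 lie under 95%.

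The 2 embryos with the least Tet2 conversion, both of 6KO at E6.5, also fell short at the other Tet genes, at Tet3 in the same way as at Tet2 and at Tet1 in another. In the 6KO embryo 1 of E6.5, T made up 93.2% at the Tet2 target, 94.8% at the Tet1 target and 94.8% at the Tet3 target. The reads without T were mostly unconverted C at Tet2 (6.67% C, 0.117% A and G) and at Tet3 (4.39% C, 0.858% A and G), whereas at Tet1 most were A or G (1.17% C, 4.06% A and G). Embryo 3 of the same stage showed the same split, with 5.11% C at Tet2 and 1.05% C beside 2.71% A and G at Tet1. The next lowest embryos were 2 of 5KO, and they lacked this split. In the 5KO embryo 1 of E7.5 the targets of Tet2, Tet1 and Tet3 had 95.5%, 97.9% and 97.8% T, and at Tet1 the rest was mostly unconverted C (1.98% C, 0.129% A and G). In the 5KO embryo 3 of E9.5, with 96.13% T at Tet2, Tet1 likewise had more C (3.20%) than A and G (1.03%). More A and G than C at Tet1 was not confined to embryos low at Tet2. C exceeded A and G together at Tet1 in 23 of 39 edited embryos. The 6KO embryo 1 of E7.5, with 98.9% T at Tet2, had 1.48% C and 3.46% A and G at Tet1.

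To ask whether adding Dnmt sgRNAs went with a change at the Tet2 target, the 6 samples of 4KO, 5KO and 6KO were compared with the 2 of Tet-TKO. Each sample stands for 3 or 4 embryos, whose values were averaged. The stages averaged were E7.5 to E10.5 in Tet-TKO, E7.5 to E9.5 in 4KO and 5KO, and E6.5 to E8.5 in 6KO. The compared samples therefore differ in stage as well. Mean C5T was 98.7% ± 1.11 (SD, n = 6) with and 98.5% ± 0.248 (SD, n = 2) without Dnmt sgRNAs, a difference of 0.264 points (two-sided exact permutation p = 0.75, or 0.825 after adjustment). Without 4KO replicate 2 it was 0.0285 points, without 4KO replicate 1 0.0294 points and without 6KO replicate 1 0.595 points. With embryos of E7.5 and E8.5 only it was 0.360 points (two-sided exact permutation p = 0.643, adjusted p = 0.825). With the median of each sample's embryos in place of the mean it was 0.891 points (two-sided exact permutation p = 0.0714, adjusted p = 0.157). Of the 6 samples, 3 were above and 3 below the Tet-TKO mean. The smallest p that 28 arrangements allow is 0.0357. All p-values in these comparisons were adjusted by Benjamini-Hochberg over 11 tests, and none of the 11 passed 0.05 after adjustment. With 11 tests, 1 test alone at its smallest possible p (0.00781 in the exact sign-flip tests below) could not pass after adjustment. Not passing therefore does not show that there was no difference.

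Between E7.5 and E8.5, C5T was higher at E8.5 in 5 of 8 labelled samples, on average by 0.916 points ± 1.29 (SD of the differences, n = 8; two-sided exact sign-flip permutation p = 0.0625, adjusted p = 0.172). Without 5KO replicate 1 the mean was 0.514 points (two-sided exact sign-flip permutation p = 0.125, adjusted p = 0.275). The smallest p possible with 8 samples is 0.00781, if no difference is 0. The 2 Tet-TKO samples were higher at E8.5 by 1.09 and 0.63 points, and the 2 of 5KO by 3.73 and 1.69 points. In 4KO the differences were −0.0437 and −0.0063 points, and in 6KO they were 0.317 and −0.0734 points. The E7.5 and E8.5 embryos of a sample are different animals that share a number.

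The bystanders C11 and C13 behaved unlike the target. Both were at 0% T in the 13 controls, and the median over the 39 edited embryos was 0% at both, yet single embryos reached far higher shares. At least 5% T at C11 or C13 was found in 11 of 39 embryos, 8 of them in labelled samples. C11 reached 5% in 7 embryos and C13 in 5, and 1 embryo counted under both.

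C11T, the change that would replace leucine 176, was highest in the 4KO embryo 1 of E8.5, at 40% of reads. The 5KO embryo 2 of E7.5 had 22%, and the 4KO embryo 1 of E7.5 had 16%. In Tet-TKO, embryo 3 of E8.5 had 13% and embryo 1 of E7.5 had 10%. The 4KO embryos 2 of E7.5 and of E8.5 had 5% each. No 6KO embryo exceeded 1% at C11, and 8 of the 9 were at 0%.

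C13T, the silent change in the same codon, was highest in the 5KO embryo 1 of E8.5, at 39%. The 4KO embryo 3 of E7.5 had 26%. In 6KO, embryo 3 of E8.5 had 17% and embryo 1 of E6.5 had 14%. The 4KO embryo 2 of E8.5 had 9%, and it was the one embryo with at least 5% at both bystanders. In Tet-TKO all 12 embryos were at 0% at C13, although 6 of them had at least 1% at C11.

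**Figure D2:**
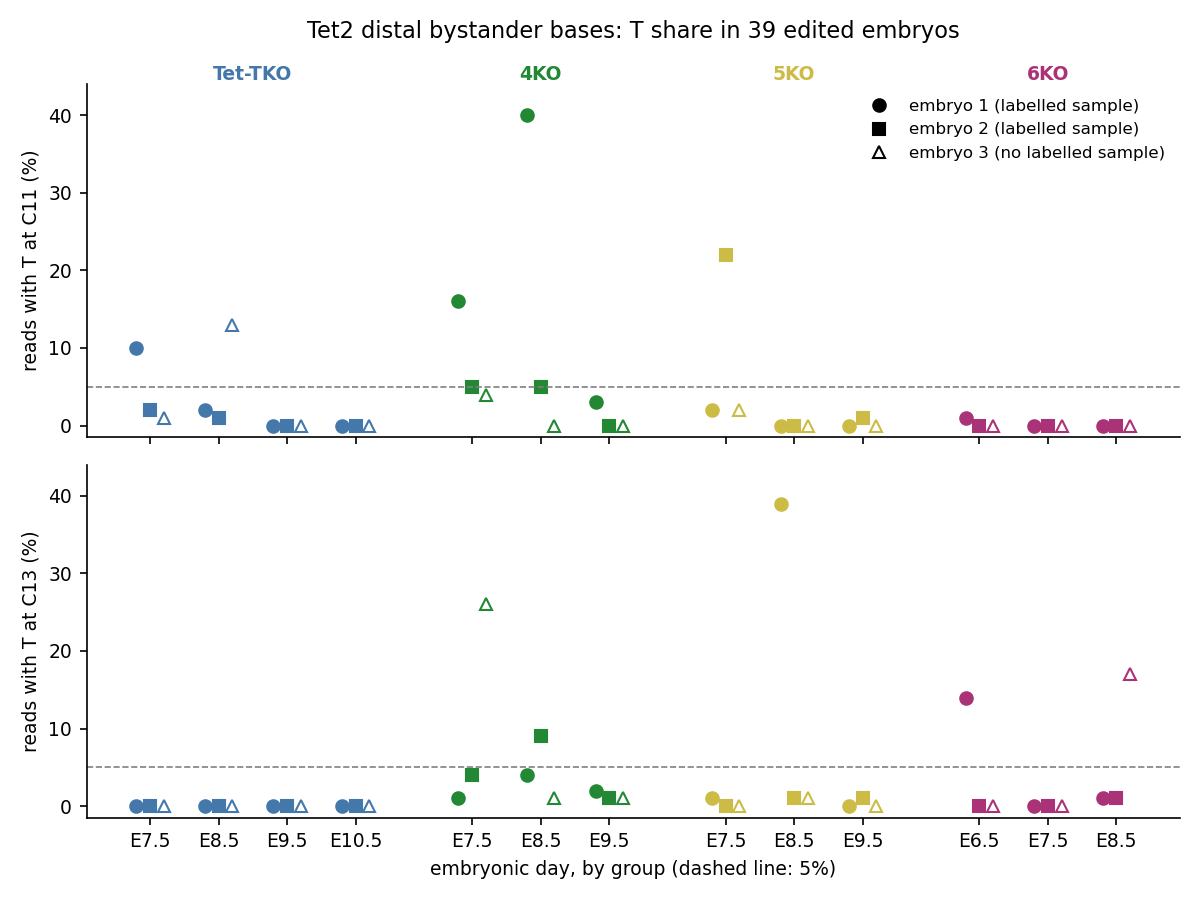
Percentage of reads with T at the Tet2 bystanders C11 (upper panel) and C13 (lower panel) in 39 edited embryos, by group and embryonic day. Each point is 1 embryo, open triangles are embryos 3, and the dashed line marks 5%; all 12 embryos of E9.5 and E10.5 lie below it in both panels.

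The count of embryos with low bystander conversion differed between groups, which also hold different stages. At least 1% T at C11 or C13 was found in 9 of 9 embryos of 4KO, 7 of 9 of 5KO, 6 of 12 of Tet-TKO and 4 of 9 of 6KO. In 4KO, the group with the most complete target conversion, C13 was at 1% or more in every embryo and C11 in 6. At the level of 5% the counts were 5 of 9 in 4KO, 2 of 9 in 5KO, 2 of 12 in Tet-TKO and 2 of 9 in 6KO. At E7.5 and E8.5, every embryo of Tet-TKO, 4KO and 5KO had at least 1% T at C11 or C13. In 6KO every embryo of E8.5 did, and no embryo of E7.5. The Tet-TKO embryos at 0% at both were all of E9.5 and E10.5, and those of 5KO all of E9.5. The counts include embryos of no labelled sample and were not tested.

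Embryos with at least 5% T at a bystander were all of E6.5 to E8.5. In Tet-TKO, 4KO and 5KO, 9 of 18 embryos of E7.5 and E8.5 had at least 5% T at C11 or C13, against 0 of 12 embryos of E9.5 and E10.5. The highest share at a bystander in the later embryos was 3%, at C11 of the 4KO embryo 1 of E9.5. Low shares did occur in the later embryos, where C13T was at least 1% in 4 of 12 and C11T in 2 of 12. The split at 5% was noticed in the values and was not tested, and how embryos of each stage were picked is not known here.

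Of the 9 embryos with at least 10% at C11 or C13, 0 had at least 10% at both. Each was rare by itself at that level, with C11T at 10% or more in 5 of 39 embryos and C13T in 4 of 39. At 2% the counts were 13 of 39 for C11T, 8 of 39 for C13T and 5 of 39 for both, the last all in 4KO. Whether the bystanders went together or apart was not tested. In the embryo with 40% C11T, C13T was 4%, and in the embryo with 39% C13T, C11T was 0%. Over all 39 embryos C11T was the higher in 13, C13T in 12, and 14 had equal values, all but 1 of them at 0%. In labelled samples mean C11T was 4.43% ± 6.65 (SD, n = 8) and mean C13T 3.29% ± 4.53 (SD, n = 8), a difference of 1.14 points (two-sided exact sign-flip permutation p = 0.719, adjusted p = 0.825) with 4 samples on each side.

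**Figure D3:**
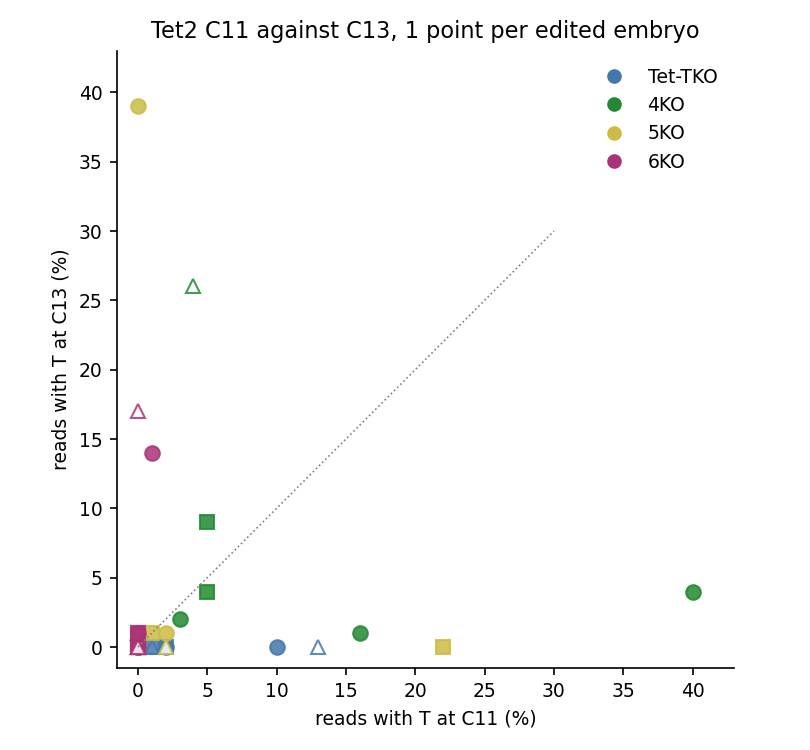
Percentage of reads with T at Tet2 C11 (horizontal axis) against C13 (vertical axis), 1 point for each of 39 edited embryos, coloured by group; circles, squares and open triangles are embryos 1, 2 and 3, and the dotted line marks equal shares. The embryos with the highest shares lie along one axis or the other, such as 40% at C11 with 4% at C13.

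Because the target was converted in nearly all reads, the shares set a lower limit on how many reads carried target and bystander together, if they are counted over the same reads. The limits below also allow for the bystander share being given to the nearest 1%. In the 4KO embryo 1 of E8.5 at least 39.3% of reads had both C5T and C11T. In the 5KO embryo 1 of E8.5 at least 37.7% had C5T and C13T, and in the 4KO embryo 3 of E7.5 at least 25.4%. In these reads L176F or the silent change lies 2 codons after the stop. The limit was weaker in the 6KO embryo 1 of E6.5, where at least 6.7% of reads had C5T beside C13T out of 14% C13T. Reads with C11T but without C5T cannot exceed the reads without T at C5. In the 4KO embryo 1 of E8.5 the latter were 0.0585% with C and 0.0507% with A or G. Within such limits, how many reads carried C11T without C5T cannot be read from shares.

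The difference between groups passed the test at neither bystander. With Dnmt sgRNAs mean C11T was 5.28% ± 7.62 (SD, n = 6) and without 1.88% ± 1.59 (SD, n = 2), a difference of 3.40 points (two-sided exact permutation p = 0.679, adjusted p = 0.825). Without 4KO replicate 1, which holds the 40% embryo, the difference was 0.525 points. Mean C13T was 4.39% ± 4.80 (SD, n = 6) with Dnmt sgRNAs and 0% in both Tet-TKO samples, and all 6 samples were above 0% (difference 4.39 points, two-sided exact permutation p = 0.286, adjusted p = 0.524). Without 5KO replicate 1 that difference was 2.60 points. These means also average unlike stages. With embryos of E7.5 and E8.5 only, the difference was 3.75 points at C11 (two-sided exact permutation p = 0.75, adjusted p = 0.825). At C13 it was then 5.08 points (two-sided exact permutation p = 0.286, adjusted p = 0.524).

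Between E7.5 and E8.5, C13T was higher at E8.5 in 6 of 8 labelled samples and equal at 0% in the other two, which were those of Tet-TKO. The mean difference was 6.13 points ± 12.99 (SD, n = 8; two-sided exact sign-flip permutation p = 0.0313, adjusted p = 0.115). With the Tet-TKO differences at 0, this is the smallest p that the test allows here. Most of it came from 5KO replicate 1, which went from 1% to 39%, and without that sample the mean was 1.57 points. Among the other samples the difference was 1 point, the step in which the tables give this base, in 5KO replicate 2 and both 6KO samples, and 3 and 5 points in 4KO. C11T went the other way in 4 samples and up in 1, with a mean of −1.13 points ± 12.6 (SD, n = 8; two-sided exact sign-flip permutation p = 0.75, adjusted p = 0.825).

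Among the 3 Tet targets, Tet3 was the closest to Tet2 in T share. For comparison, the windows of the other genes are shown with every reference C in capitals. In Tet3 the first of them lies before the protospacer, at position −2, and was read as T in up to 24% of reads. No C of theirs in the PAM-near part of the protospacer follows a T.
Tet1 reference: aaaaCaCagtCaggagaaaCgCatgg
Tet3 reference: gCgggtagaCCagaagCCCgaCtggg
Over the 8 labelled samples the mean absolute difference in target T share from Tet2 was 0.294 points for Tet3 and 0.652 points for Tet1. Of the Dnmt targets, each shared with Tet2 in 4 samples, Dnmt3a differed by 0.765 points, Dnmt3b by 1.06 and Dnmt1 by 1.12. Tet2 minus Tet3 was 0.00847 points ± 0.393 (SD, n = 8; two-sided exact sign-flip permutation p = 0.961, adjusted p = 0.961). Tet2 minus Tet1 was 0.508 points ± 0.688 (SD, n = 8; two-sided exact sign-flip permutation p = 0.102, adjusted p = 0.223), with Tet2 higher in 7 of 8 samples. When the T share was taken out of T and C alone, Tet2 minus Tet1 was −0.153 points, since reads with A or G at Tet1 then no longer count.

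A and G at a target C are neither the reference nor the wanted base. By the median such reads were rarest at Tet2 in edited embryos, and also in controls. Over 39 edited embryos they made up 0.013% to 0.25% at Tet2, 0.0786% to 4.06% at Tet1 and 0.0466% to 2.35% at Tet3. The medians at Tet2, Tet1 and Tet3 were 0.0334%, 0.208% and 0.110% in edited embryos, against 0.0728%, 0.190% and 0.127% in controls. At Tet2 and Tet3 the edited median was thus below that of controls. Tet2 was lower than Tet1 in 39 of 39 edited embryos and lower than Tet3 in 37. In the labelled samples the mean was 0.0568% ± 0.0291 (SD, n = 8) at Tet2 against 0.728% ± 0.800 (SD, n = 8) at Tet1 and 0.210% ± 0.231 (SD, n = 8) at Tet3.

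The difference from Tet1 was −0.671 points, and Tet2 was lower in 8 of 8 samples (two-sided exact sign-flip permutation p = 0.00781, the smallest possible; adjusted p = 0.0859). Without 6KO replicate 1 it was −0.411 points. The difference from Tet3 was −0.153 points, with Tet2 lower in 7 of 8 samples (two-sided exact sign-flip permutation p = 0.0156, adjusted p = 0.0859). Without Tet-TKO replicate 1 it was −0.0850 points (adjusted exact permutation p = 0.115), and with embryos of E7.5 and E8.5 only −0.0403 points. Controls, 11 distinct under 13 names, showed the same order. A and G were fewer at Tet2 than at Tet1 under 13 of 13 names, with medians of 0.0728% and 0.190%, and fewer than at Tet3 under 12 of 13. Above 1% A and G was seen in 9 of 39 edited embryos at Tet1, in 1 at Tet3 and in 0 at Tet2.

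**Figure D4:**
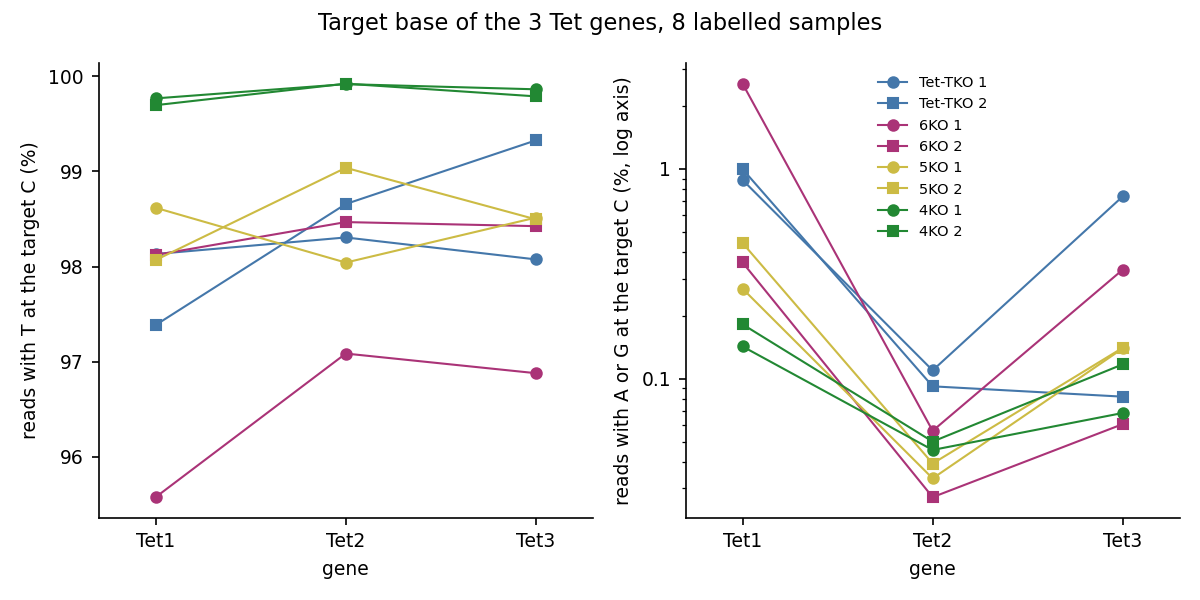
Percentage of reads with T (left) and with A or G (right, log axis) at the target C of Tet1, Tet2 and Tet3 in the 8 labelled samples; each line joins the 3 genes of 1 sample, and each point is the mean over its 3 or 4 embryos. The Tet2 point is below the Tet1 point in all 8 lines on the right.

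The bystanders of Tet2 also stood apart by position. Over the 6 windows of the series there are 17 C at positions 10 to 20, the end near the PAM, of which 5 follow a T and 12 another base. Of the 5 after a T, 3 reached at least 5% in some embryo. They were C11 and C13 of Tet2, in 7 and 5 of 39 embryos, and C12 of Dnmt3a, in 1 of 38 embryos, at 38%. C15 of Dnmt3a and C18 of Dnmt1, which also follow a T, stayed at or below 2%. Of the 12 after another base, including C16 and C20 of Tet2, 0 reached 5% and the highest share was 1%. All of these 12 lie at position 14 or later, so the base before a C and its position cannot be told apart here. The 6 such C of Tet1 and Tet3 all follow another base and stayed at or below 1%. These are few positions, and the counts are a description without a test. The Tet windows were read in 39 edited embryos and the Dnmt windows in 38, which are only partly the same embryos.

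Control embryos gave the background at the Tet2 target. Those listed with Tet-TKO had 0.11%, 1.19%, 0.34% and 0.218% T at C5, from E7.5 to E10.5. Those of 4KO had 0.341%, 0.140% and 0.106%, and those of 6KO had 0.114%, 0.186% and 0%. Those of 5KO stood above most of these, with 2.38%, 0.805% and 2.07%. Their targets in Tet1 (3.16%, 0.553% and 3.47%) and Tet3 (3.27%, 1.22% and 2.16%) were raised along with it.

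At C16 of the same reads the 5KO controls had 0.0855%, 0.0503% and 0.0479% T. C5T was above C16T in 12 of 13 controls, the exception being the 6KO control of E8.5, where both were 0%. In that control no share above 0% at C5 or C16 was under 0.304%, so its 0% is coarser than in the other controls. In the controls, which received no sgRNA, the T share was thus higher at the target than at C16 of the same window. Why it was higher was not tested.

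**Figure D5:**
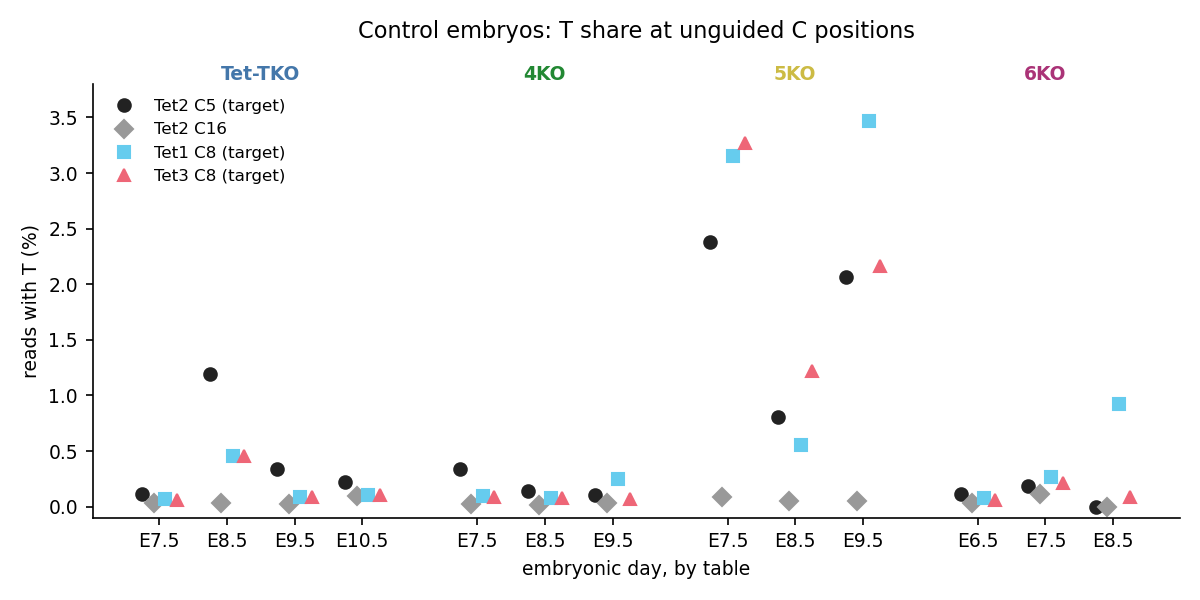
Percentage of reads with T at Tet2 C5 and C16 and at the Tet1 and Tet3 targets in the controls, by table and embryonic day. Each symbol is 1 of 13 control names, of which 11 are distinct. The E7.5 and E9.5 controls of 5KO have over 2% T at all 3 targets and under 0.1% at C16.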

How the data were processed

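Genomic DNA of single embryos was amplified at each target site, barcoded, pooled and sequenced in paired-end reads by the authors. The deposited values are fractions: for each embryo, gene and window base, how large a part of the reads had each of the 4 bases. They are printed here as percentages. The submitters' processing notes name mm10; the aligner, read filters and treatment of indels are not given in the sources used here. Shares come with 2 decimals at most bases and up to 6 at C5 and C16, and without read counts, so no intervals were computed.

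Embryos were mapped to the 8 labelled samples of these groups by group and number; over all 7 tables, 46 embryos match no labelled sample. Protospacers were placed on GRCm38 and annotated with GENCODE M21. Sample means over embryos were compared in 11 exact two-sided permutation tests (python 3.11.15, numpy 2.4.6, pandas 2.3.3), on the absolute difference, with Benjamini-Hochberg adjustment (statsmodels 0.14.6); the tests were checked on simulated data against scipy 1.17.1. The alternatives were T out of T and C, background subtraction, E7.5 and E8.5 only, medians, the logit scale, left-out samples and other pairings. Tet2 was described at each reference C and wherever another base reached 5%. Embryos were named singly under 95% at C5 or from 5% at C11 or C13, and other values where a range or comparison turns on them. The site and these tests were chosen with earlier results of these data known.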

Additional observations from a re-analysis of the deposited data

Results flagged for a closer look

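At 4 of the 8 combinations of group and Tet2 position that could be examined, 1 embryo lay far from the other 8 of its group, all stages and embryos 3 included. These were C11T of 40% in the 4KO embryo 1 of E8.5, where the others ran from 0% to 16%, and C13T of 26% in the 4KO embryo 3 of E7.5, where the others ran from 1% to 9%. In 5KO they were C11T of 22% in embryo 2 of E7.5 and C13T of 39% in embryo 1 of E8.5, with the others at 0% to 2% and 0% to 1%. In each case the gap to the nearest embryo was over 0.493 of the whole range, the 95% limit of Dixon's test for 9 values. That limit is made for normally distributed values, whereas these shares are bounded at 0%, mostly low and given to the nearest 1%. A set at C11 or C13 was examined only if its range was not under 5 points, so it could enter through its highest embryo. How often chance passes the limit here is therefore not known. At C5, 0 of 3 groups had such an embryo. The 12 embryos of Tet-TKO and C11T in 6KO were not examined.

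The change in C5T from E7.5 to E8.5 had opposite signs in different groups. It was 0.86 points in Tet-TKO and 2.71 points in 5KO, positive in both samples of each, and −0.025 points in 4KO, negative in both samples. The difference between groups was not tested, and the 4KO embryos were all above 99.8% at both stages.

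Of the 13 edited embryos that match no labelled sample, 3 had at least 5% T at a bystander, where every control was at 0%. They were the 4KO embryo 3 of E7.5 with 26% C13T, the 6KO embryo 3 of E8.5 with 17% C13T and the Tet-TKO embryo 3 of E8.5 with 13% C11T.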

How the results depend on the processing

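Of 46 alternatives to the 11 tests other than leaving out a sample, 41 kept the direction and the side of the 0.05 threshold. With T taken out of T and C, Tet2 minus Tet1 at the target turned to −0.153 points and Tet2 minus Tet3 to −0.142. For A or G at the target, unpaired genes put Tet2 minus Tet1 at −0.671 points (permutation adjusted p = 0.00171) and Tet2 minus Tet3 at −0.153 (permutation adjusted p = 0.0430) under the threshold, as did medians over embryos for the latter (−0.0618, exact permutation adjusted p = 0.0430); it is −0.0403 with E7.5 and E8.5 only.

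Medians over embryos put the Dnmt sgRNA comparison at 0.891 points for C5T and 1.5 for C13T, and Tet2 minus Tet1 in T share at 0.867. Subtracting the control share put C5T at 0.0459.

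Of 88 fits without 1 sample, 6 turned. C11T, E8.5 minus E7.5, ran from −4.71 to 1.86 points (positive without 5KO replicate 2), C11T minus C13T from −1.18 to 3.11 (negative without 4KO replicate 1), and Tet2 minus Tet3 from −0.0677 to 0.105, turning in 4 fits. C5T ran from 0.0285 to 0.595 points for the Dnmt sgRNA comparison and from 0.514 to 1.06 for E8.5 minus E7.5. C11T minus C13T was 3.11 without 5KO replicate 1, 0.298 without 5KO replicate 2 and 1.96 without 6KO replicate 1, and C11T, E8.5 minus E7.5, was −4.71 without 4KO replicate 1 and −0.143 without Tet-TKO replicate 1.

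With labels permuted within replicate numbers (the replicate block), p for the Dnmt sgRNA comparison was 0.813 for C5T (0.264 points), 0.688 for C11T and 0.313 for C13T. The numbers share no animal; deviations of same-numbered samples correlated from −0.552 to 0.457 over 5 values. With stages permuted freely in each group (no replicate block), the exact permutation p for C5T was 0.0185 (adjusted p = 0.0679).

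Embryos with C11T or C13T numbered 16 at 2% and 9 at 10%. Unknown depth limits all single shares.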
